A study of Mus musculus with 4 samples.

Results

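The genes described here encode the proteasome, the barrel-shaped protease that degrades ubiquitin-tagged proteins, together with its activators, its inhibitor and its assembly factors. They were chosen by name: every gene of the deposited table called *Psma*, *Psmb*, *Psmc*, *Psmd*, *Psme*, *Psmf* or *Psmg* followed by a number was taken, which gave 48 genes of the 22479 distinct gene names in the table. Each of the 48 had a single row. The data come from poly(A) RNA of mammary gland from 4 virgin mice of 2 months on a mixed 129SV::FVB/N::C57BL/6 background, 2 *miR-21+/+* and 2 *miR-21-/-*. The *miR-21-/-* mice carry the deletion of the microRNA in every cell, not in the mammary epithelium alone, and no other allele or treatment is given for either genotype. For each gene the authors' table holds a single FPKM value per genotype (a read count scaled by transcript length and by library size) that combines both mice. How far the mice of one genotype differed cannot be seen, so no difference below has a replicate check, and no test was run. The row of the microRNA is merged with *Vmp1* and mature microRNA was not measured, so the deletion itself could not be checked.

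Proteins enter the proteasome through a cap, the 19S regulatory particle, which recognises ubiquitin chains and unfolds the substrate with a ring of ATPases. They are cut inside the 20S core, a stack of outer rings of alpha subunits around inner rings of beta subunits. Only the beta1, beta2 and beta5 subunits are catalytic. In cells exposed to interferon, and in lymphocytes and other blood cells at rest, these 3 are replaced by *Psmb9*, *Psmb10* and *Psmb8*, giving the immunoproteasome, whose peptides are well suited to presentation on MHC class I. In a gland made of epithelium, fat, vessels and leukocytes the constitutive form is present in all cells, and the immuno form is richest in leukocytes.

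The promoters of the beta1 and beta5 catalytic pairs are shown because these pairs hold the subunit that differed most between genotypes, *Psmb9*, and its neighbour *Psmb8*, beside the constitutive subunits they replace. Each is the RefSeq window from 250 bases before to 50 bases after the start site (GRCm38.p6), placed by exact match in mm9, the build the authors used, and read in the direction of transcription. The windows lie at chr17:34324226-34324525 (*Psmb9*, minus strand), chr17:34334890-34335189 (*Psmb8*, plus strand), chr11:70338609-70338908 (*Psmb6*, plus strand) and chr14:55236783-55237082 (*Psmb5*, minus strand). The rows of *Psmb9*, *Psmb6* and *Psmb5* begin, in the direction of transcription, at the start sites of their windows. The row of *Psmb8* begins upstream of its whole window, at 34334671, so the capitals of *Psmb8* lie inside the span of its measured row. Capitals mark matches to TTCNNNGAA, the interferon gamma-activated site, or to TGACNNNGC, an antioxidant response element of the kind bound by the CNC factors that include *Nfe2l1*.
Psmb9: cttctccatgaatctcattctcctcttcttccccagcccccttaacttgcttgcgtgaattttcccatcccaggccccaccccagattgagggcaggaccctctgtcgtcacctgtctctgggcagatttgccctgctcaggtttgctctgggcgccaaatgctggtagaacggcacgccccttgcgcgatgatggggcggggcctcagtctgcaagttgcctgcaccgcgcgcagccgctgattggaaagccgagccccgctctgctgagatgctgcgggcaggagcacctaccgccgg
Psmb8: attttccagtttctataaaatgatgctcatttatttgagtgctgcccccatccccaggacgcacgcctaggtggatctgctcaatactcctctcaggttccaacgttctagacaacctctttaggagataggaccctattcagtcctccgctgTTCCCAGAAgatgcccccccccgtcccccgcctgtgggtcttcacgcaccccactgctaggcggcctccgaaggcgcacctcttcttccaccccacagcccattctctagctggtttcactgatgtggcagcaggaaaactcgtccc
Psmb6: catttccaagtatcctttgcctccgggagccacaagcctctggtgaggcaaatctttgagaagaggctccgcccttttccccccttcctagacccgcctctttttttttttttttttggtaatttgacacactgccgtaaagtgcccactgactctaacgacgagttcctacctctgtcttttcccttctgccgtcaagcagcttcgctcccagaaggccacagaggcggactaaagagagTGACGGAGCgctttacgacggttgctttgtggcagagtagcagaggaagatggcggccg
Psmb5: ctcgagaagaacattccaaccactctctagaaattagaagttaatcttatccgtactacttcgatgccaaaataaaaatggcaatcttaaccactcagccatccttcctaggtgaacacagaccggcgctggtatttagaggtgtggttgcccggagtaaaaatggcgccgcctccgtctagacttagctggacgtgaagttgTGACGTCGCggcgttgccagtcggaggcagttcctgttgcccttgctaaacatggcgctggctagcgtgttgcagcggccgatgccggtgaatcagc

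A window was found for 40 of the 48 genes, and both strands were searched. TTCNNNGAA was present in 3 of the 40 (7.5%), namely *Psmb8*, *Psmd2* and *Psmg1*, and in 9.55% of the 27025 genes with a window. GAAANNGAA, the core of sites for interferon regulatory factors, was present in 7 (17.5%), *Psmb3*, *Psmb4*, *Psmc2*, *Psmd4*, *Psmd9*, *Psme1* and *Psmg4*, against 9.76% of all genes. TGACNNNGC was present in 6 (15.0%), *Psmb5*, *Psmb6*, *Psmc6*, *Psmd12*, *Psmd9* and *Psme4*, against 14.0%. The GC box GGGCGG, a site for SP-family factors, was present in 23 (57.5%) against 38.2%. These matches describe letters in a window, and none of them overlapped another in the 4 sequences printed. The window of *Psmb9* has no capitals; its only match was a GC box, and the window shares 275 bases with that of *Tap1*, whose start site lies 226 bases away on the opposite strand.

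The proteasome as a whole was close to level between the genotypes. Of the 48 genes, 46 exceeded 5 FPKM in at least one genotype. Among these the median log2 ratio of *miR-21-/-* to *miR-21+/+* FPKM was −0.06, the range ran from −0.34 (*Psmb9*) to 0.13 (*Psmd13*), and 35 were lower (76.1%) and 11 higher in *miR-21-/-* glands. Of all 9714 named rows above 5 FPKM, 56.9% were lower. A limit of 0.32 on the log2 scale was used to count larger differences. A single gene, *Psmb9*, was lower by at least this limit, and none was higher by as much. Over these named rows the median was −0.03, 11.3% were lower by at least the limit and 8.48% higher, so the 1 of 46 is a smaller share than the background. At 1.1-fold, 0.14 on the log2 scale, the counts were 6 lower (*Psmb9*, *Psmd4*, *Psmb8*, *Psmb5*, *Psme2* and *Psma3*) and 0 higher, beside 28.2% and 18.8% of all named rows. The members also lay close together: their median absolute log2 ratio was 0.09, against 0.13 for all named rows, and 69.6% of all named rows fell inside the range that held every member.

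The split between lower and higher members depended on how the columns are scaled. With the log2 ratios centred on the median of all named rows it was 32 lower and 14 higher. With both columns scaled to equal sums over named rows it was 14 lower and 32 higher. With equal sums over all rows, where 8023 unnamed rows of unknown read count also enter, it was 46 lower and 0 higher. Differences between members, and shares within a genotype, do not depend on this choice and are given where possible.

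**Figure D1:**
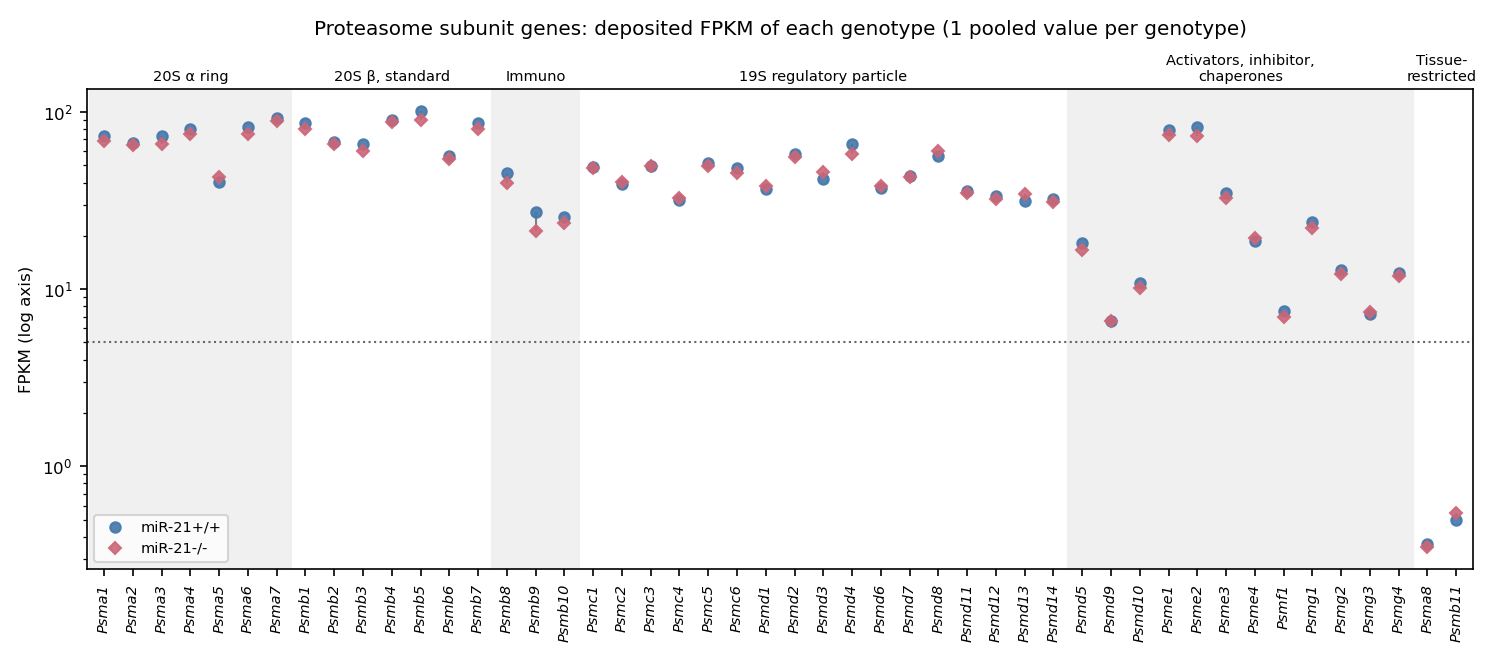
FPKM of all 48 proteasome genes on a log axis, with circles for *miR-21+/+* and diamonds for *miR-21-/-*, each a single pooled value; the dotted line is 5 FPKM. The symbols of most genes overlap, *Psmb9* shows the widest gap (27.1 and 21.4 FPKM), and *Psma8* and *Psmb11* lie below 1 FPKM in both genotypes.

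**Figure D2:**
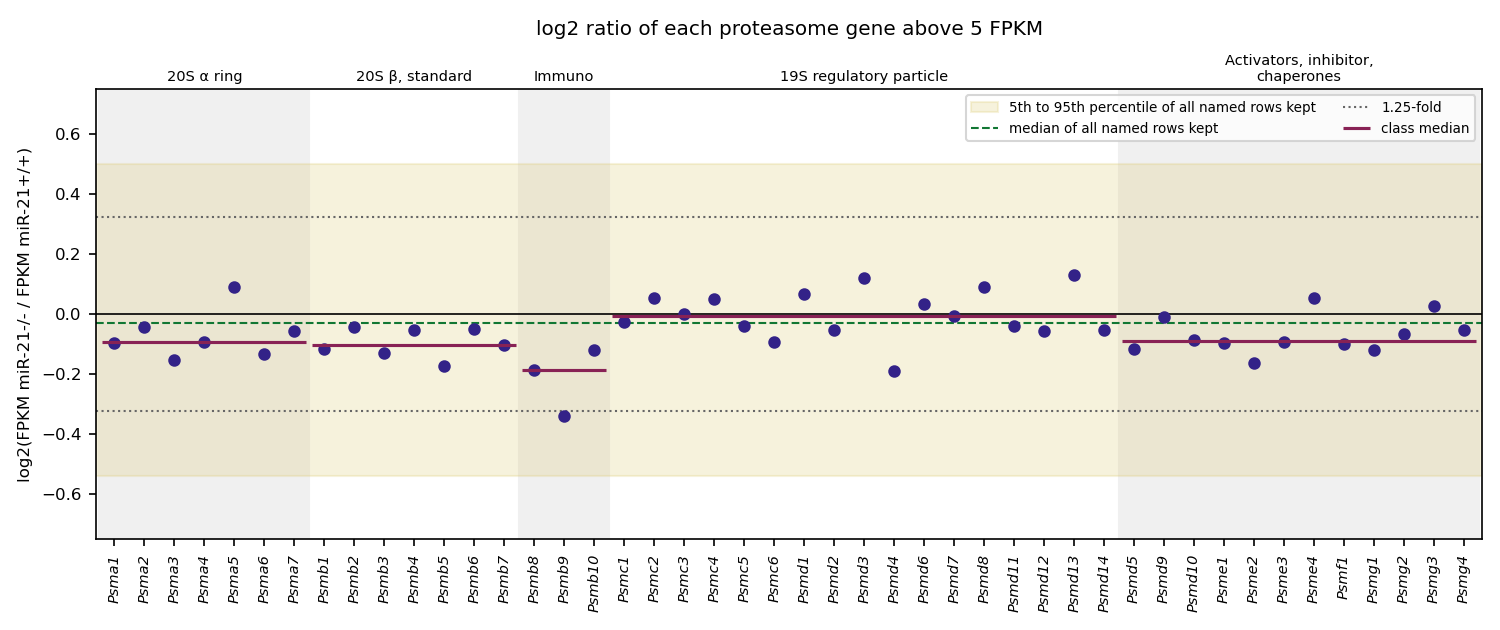
log2 ratio of *miR-21-/-* to *miR-21+/+* FPKM for the 46 genes above 5 FPKM, with class medians as bars, the limits of 0.32 either way dotted and the 5th to 95th percentile of all named rows (−0.54 to 0.50) shaded. Every member lies inside the shaded range, and *Psmb9* alone crosses a dotted line.

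The immunoproteasome subunits were the class with the lowest median, −0.19. *Psmb9* (chromosome 17, 34318885 to 34324275, minus strand), which replaces *Psmb6* at the beta1 position, was at 27.1 FPKM in *miR-21+/+* and 21.4 FPKM in *miR-21-/-* glands, a 1.27-fold lower level and a log2 ratio of −0.34. It lay just past the limit of 0.32, and its log2 ratio was −0.31 after centring on the median of all named rows and −0.24 with equal sums over named rows, both short of the limit. Of all named rows, 10.5% were as low or lower. *Psmb8* (chromosome 17, 34334671 to 34338454, plus strand), the beta5 replacement, went from 45.4 to 39.9 FPKM, a log2 ratio of −0.19. *Psmb10* (chromosome 8, 108459002 to 108462318, minus strand), the beta2 replacement, was at 25.6 and 23.5 FPKM, a log2 ratio of −0.12. All 3 were lower in *miR-21-/-* glands under each of the 4 scalings, with a value of −0.02 for *Psmb10* at equal sums over named rows.

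The constitutive catalytic subunits were also slightly lower on the deposited scale. *Psmb6*, the caspase-like beta1 subunit, was at 56.5 and 54.6 FPKM in *miR-21+/+* and *miR-21-/-* glands, a log2 ratio of −0.05. *Psmb7*, the trypsin-like beta2 subunit, was at 86.5 and 80.5 FPKM (−0.10). *Psmb5*, the chymotrypsin-like beta5 subunit and the most abundant proteasome transcript of the table, was at 102 and 90.7 FPKM (−0.17), in a row it shares with *Mir686*. At equal sums over named rows *Psmb6* was higher instead (0.05), *Psmb7* was level and *Psmb5* stayed lower (−0.07). The median log2 ratio of the 3 immuno subunits differed from that of the 3 constitutive subunits by −0.08 (−0.11 between means). Most of the difference between means lay in one pair. The log2 ratio of *Psmb9* minus that of *Psmb6* was −0.29, while the same differences were −0.02 for *Psmb10* against *Psmb7* and −0.01 for *Psmb8* against *Psmb5*.

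The share of each pair's FPKM taken by the immuno subunit shows this without any scaling, since FPKM is per length and the share is taken within a genotype. *Psmb9* made up 32.4% of the beta1 pair in *miR-21+/+* glands and 28.1% with the deletion. *Psmb8* made up 30.8% and 30.5% of the beta5 pair, and *Psmb10* 22.8% and 22.6% of the beta2 pair. Over the 3 pairs together the immuno share was 28.6% and 27.3%. The shares differed by −0.231 percentage points for beta2, by −0.21 points for beta5 and by −4.24 points for beta1. No interval can be given for these shares, since the read counts behind them are unknown.

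**Figure D3:**
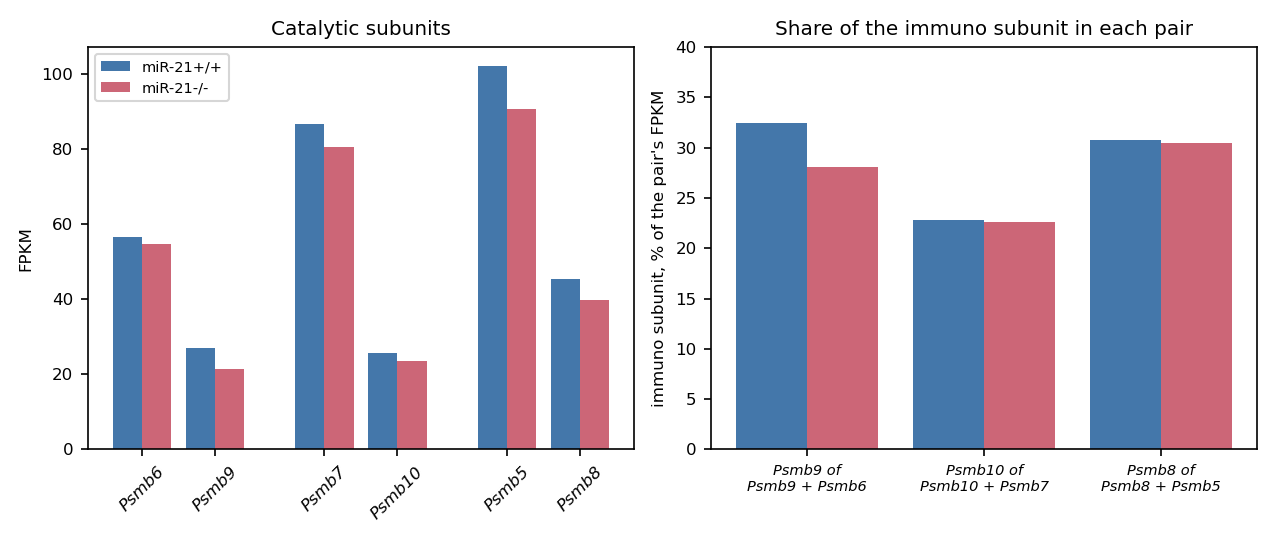
Left, FPKM of the constitutive and immuno subunit at each catalytic position (bars from 0, one pooled value per genotype, no error); right, FPKM of the immuno subunit as a percentage of its pair. The beta1 share is 32.4% in *miR-21+/+* and 28.1% in *miR-21-/-*, and both bars of the other pairs are nearly equal.

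*Psmb9* and *Psmb8* lie in the MHC class II region with *Tap1* and *Tap2*, the subunits of the pump that carries proteasome peptides into the endoplasmic reticulum. In the table the order on chromosome 17 is *Psmb9*, *Tap1*, *Psmb8*, *Tap2*, within 34382 bp, and 225 bp separate the rows of *Psmb9* and *Tap1*. *Tap1* was at 19.9 FPKM in *miR-21+/+* and 16.2 FPKM in *miR-21-/-* glands, a log2 ratio of −0.30, close to the −0.34 of *Psmb9*. *Tap2*, at 34.4 and 37.8 FPKM, was on the other side of 0 (0.13). The log2 ratios along these 4 genes thus ran −0.34, −0.30, −0.19 and 0.13.

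The standard 20S core, without the immuno subunits, was lower in 13 of its 14 genes, with a median log2 ratio of −0.10. In the alpha ring, *Psma7* was the most abundant at 92.7 and 89.0 FPKM (log2 ratio −0.06). *Psma6* followed at 82.4 and 75.1 FPKM (−0.13), *Psma4* at 80.7 and 75.5 FPKM (−0.09), *Psma1* at 73.4 and 68.6 FPKM (−0.10) and *Psma3* at 73.1 and 65.7 FPKM (−0.15). *Psma2* was at 67.2 and 65.2 FPKM (−0.04). *Psma5* was the exception in level and direction, with the lowest FPKM of the ring and a higher value in *miR-21-/-* glands (40.4 and 43.0 FPKM, 0.09). The non-catalytic beta subunits were all slightly lower on the deposited scale. At equal sums over named rows *Psmb4* (0.05) and *Psmb2* (0.06) were higher, while *Psmb1* (−0.02) and *Psmb3* (−0.03) stayed lower. *Psmb4*, the beta7 subunit, was at 90.7 and 87.4 FPKM (−0.05) and *Psmb1*, the beta6 subunit, at 87.0 and 80.2 FPKM (−0.12). *Psmb2*, the beta4 subunit, was at 68.1 and 66.1 FPKM (−0.04) and *Psmb3*, the beta3 subunit, at 65.6 and 59.9 FPKM (−0.13).

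Named rows of similar level were also more often lower than higher, though in a smaller share. How far level accounts for the leaning of the core was not tested. Of the 19 proteasome genes with a mean of 50 to 150 FPKM, 18 (94.7%) were lower with the deletion, and their median was −0.10. Of the 901 named rows at the same level 66.7% were lower, with a median of −0.07. For the 19 proteasome genes from 20 to 50 FPKM the median was −0.03, beside −0.04 for the 2254 named rows of that level. At equal sums over named rows the 14 standard core genes divided into 6 lower and 8 higher, while 13 were lower on the deposited scale and after centring on the median, and all 14 at equal sums over all rows.

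Of the 17 subunits of the 19S cap, 9 were lower and 8 higher with the deletion, and the median was −0.01. The split was 7 and 10 after centring on the median, 1 and 16 at equal sums over named rows, and 17 and 0 at equal sums over all rows. The ATPases of the base stayed between −0.09 and 0.05. *Psmc3* was at 49.4 FPKM in both genotypes, *Psmc5* at 51.4 and 49.9 FPKM, *Psmc1* at 49.2 and 48.4 FPKM and *Psmc6* at 48.5 and 45.5 FPKM. *Psmc2* (39.0 and 40.4 FPKM) and *Psmc4* (31.7 and 32.8 FPKM) were marginally higher in *miR-21-/-* glands. These genes encode one ring, and their FPKM values in *miR-21+/+* glands lay between 31.7 and 51.4.

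Among the members above 5 FPKM, the non-ATPase subunits held both the lowest and the highest log2 ratios outside the immunoproteasome. *Psmd4*, a receptor for ubiquitin chains and the most abundant gene of the cap in *miR-21+/+* glands, was at 66.2 and 58.0 FPKM (−0.19). *Psmd13*, a structural subunit of the lid, was at 31.4 and 34.3 FPKM (0.13), the highest log2 ratio of the 46 members above 5 FPKM. The other lid subunits *Psmd3* (42.1 and 45.8 FPKM, 0.12) and *Psmd8* (56.4 and 60.0 FPKM, 0.09) were also higher, as was the scaffold subunit *Psmd1* (36.6 and 38.4 FPKM, 0.07). Another scaffold, *Psmd2*, was at 58.1 and 56.0 FPKM (−0.05). *Psmd14*, the deubiquitinase that removes ubiquitin from substrates as they enter, was at 32.1 and 30.9 FPKM (−0.05), and its partner *Psmd7* was at 43.4 and 43.2 FPKM (−0.01). The remaining lid genes *Psmd6*, *Psmd11* and *Psmd12* lay between −0.06 and 0.03, with FPKM values from 32.1 to 38.2.

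Core transcripts were more abundant than cap transcripts in both genotypes. The median of the 14 standard core genes was 77.1 FPKM in *miR-21+/+* and 71.8 FPKM in *miR-21-/-* glands, and the median of the 17 cap genes was 42.1 and 43.2 FPKM. The ratio of these medians was 1.83 in *miR-21+/+* glands and 1.66 with the deletion. This ratio does not depend on scaling and differed by −0.14 on the log2 scale.

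Among the activators, *Psme1* and *Psme2* encode PA28 alpha and beta, which open the core without ubiquitin and are induced by interferon gamma. *Psme1* was at 79.3 and 74.1 FPKM (−0.10) and *Psme2* at 82.3 and 73.4 FPKM (−0.17) in *miR-21+/+* and *miR-21-/-* glands. Their levels were nearly equal to each other, with a ratio of *Psme1* to *Psme2* of 0.963 and 1.01. *Psme3*, the nuclear PA28 gamma that is not an interferon gene, was at 35 and 32.7 FPKM (−0.09), in a row it shares with *Aoc2*. The ratio of *Psme1* to *Psme3* was 2.27 and 2.26, and that of *Psme2* to *Psme3* 2.36 and 2.24. *Psme4*, the activator PA200, was at 18.8 and 19.4 FPKM (0.05). *Psmf1*, the inhibitor PI31, was at 7.50 and 7.0 FPKM (−0.10).

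The assembly factors all lay at or below 24.0 FPKM. For the 20S core, *Psmg1* was at 24.0 and 22.1 FPKM in a row it shares with *Brwd1*, *Psmg2* at 12.8 and 12.2 FPKM and *Psmg3* at 7.28 and 7.41 FPKM. *Psmg4* was at 12.3 and 11.9 FPKM, and its row is the only one of the 48 that the authors' program marked as failed. The 4 lay between −0.12 and 0.03 on the log2 scale. For the cap, *Psmd5* was at 18.2 and 16.7 FPKM (−0.12), *Psmd10*, also known as gankyrin, at 10.8 and 10.2 FPKM (−0.09) and *Psmd9* at 6.62 and 6.58 FPKM (−0.01).

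The tissue-restricted core subunits were near the bottom of the table. *Psma8*, an alpha subunit of the testis, was at 0.364 and 0.349 FPKM, and *Psmb11*, the beta5 subunit of the thymic cortex, at 0.496 and 0.548 FPKM. Both were under the minimum of 5 FPKM and were left out of the counts, and the log2 ratio of *Psmb11* was 0.14.

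Some rows cover more than the gene they name. Besides the 3 merged rows (*Psmb5*, *Psme3* and *Psmg1*), the genomic span of 7 members is listed again for a neighbour with its own FPKM: *Psma4*, *Psmb7*, *Psmc5*, *Psmd1*, *Psme1*, *Psme2* and *Psmg4*. For *Psme2* the neighbour is the row of *Irf9* and *Rnf31*. Whether reads were counted by strand is not given in the sources used here, and how reads were divided between such neighbours was not tested. The RefSeq gene list also holds pseudogenes of *Psmb5*, *Psmb6*, *Psmb7* and *Psma5*, which could take or give reads.

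Genes that work with the proteasome also had log2 ratios near 0 on the deposited scale. Of 8 partner genes 7 were found, all above 5 FPKM, 4 lower and 3 higher and none past the limit, with a median of −0.02. *Pomp*, which helps the core mature, was at 79.8 and 76.8 FPKM, and *Nfe2l1*, the factor that raises proteasome gene expression when proteolysis is short, at 79.4 and 80.3 FPKM. The cap-associated *Adrm1* (40.9 and 40.2 FPKM), *Shfm1* (111 and 116 FPKM), *Usp14* (17.3 and 16.3 FPKM) and *Uchl5* (15.5 and 16.8 FPKM) and the adaptor *AI314180* (22.4 and 21.6 FPKM) lay between −0.08 and 0.11 on the log2 scale. Among all named rows above 5 FPKM, 56.9% were lower, and 11.3% were lower and 8.48% higher by at least the limit. Of 15 ubiquitin, shuttle and extraction genes, 11 were lower (73.3%) and 4 higher, none past the limit, with a median of −0.04. At equal sums over named rows all 7 partner genes and all 15 of these genes were higher instead, and at equal sums over all rows all were lower. *Ubb*, a ubiquitin gene, was at 519 and 491 FPKM. *Ddi2*, the protease that activates *Nfe2l1*, was at 20.5 and 23.4 FPKM (0.19), in a row it shares with *Rsc1a1*.

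Genes of the MHC class I pathway had a lower median than any proteasome class. Of 10 such genes, in *miR-21-/-* glands 9 were lower and 4 by at least the limit of 0.32, and their median was −0.27. Among all named rows above 5 FPKM, 56.9% were lower and 11.3% by at least the limit. At equal sums over named rows 7 of the 10 genes were lower and 3 higher. The 4 past the limit on the deposited scale were *B2m*, the light chain (1672 and 1188 FPKM, −0.49), the heavy chains *H2-K1* (523 and 392 FPKM, −0.42) and *H2-D1* (584 and 453 FPKM, −0.37), whose near-identical sequences can share reads, and *Nlrc5*, the transactivator of class I genes (11.7 and 7.07 FPKM, −0.73). The trimming peptidase *Erap1* was at −0.24 and *Tapbp*, the tapasin gene, at −0.20, in a row merged with 2 other genes. *Pdia3* (−0.09) and *Calr* (−0.04), general chaperones of the endoplasmic reticulum, were as level as the proteasome core.

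Interferon response genes and leukocyte markers were lower as well. Of 17 interferon response genes 16 exceeded 5 FPKM, all 16 were lower with the deletion and 10 by at least the limit, and their median was −0.35. At equal sums over named rows 15 were lower and 1 higher. The gene below 5 FPKM, *Cxcl10*, was higher, at 2.02 and 3.08 FPKM (0.61). Among all named rows above 5 FPKM, 56.9% were lower on the deposited scale and 11.3% by at least the limit. *Irf7* was at 46.1 and 20.2 FPKM (−1.19) and *Irf8* at 7.93 and 4.77 FPKM (−0.73). All 8 general leukocyte markers were lower by at least the limit, *Ptprc*, *Coro1a*, *Cd52*, *Laptm5*, *Lcp1*, *Rac2*, *Cd48* and *Cd53*, with a median of −0.78 and a summed level of 280 FPKM in *miR-21+/+* and 177 FPKM in *miR-21-/-* glands. *Lcp1*, at the limit with −0.32, was at −0.30 after centring and −0.23 at equal sums over named rows. *Ptprc*, the pan-leukocyte marker CD45, went from 21.6 to 10.5 FPKM. In a whole gland fewer cells of a type, less RNA per cell and a difference in the tissue sampled cannot be told apart. The part of the leukocytes in the lower value of *Psmb9* was not tested.

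Among leukocytes, lymphocyte markers differed most. The B cell markers *Cd79b*, *Ms4a1*, *Cd22* and *Blk* were lower, with log2 ratios of −2.09 to −3.36. *Cd79a*, whose row is merged with *Arhgef1*, was at 70.3 and 48.3 FPKM (−0.54). All 6 T cell markers (*Cd3d*, *Cd3e*, *Cd3g*, *Cd2*, *Cd5* and *Lck*) were lower, with log2 ratios of −1.76 to −2.57, with sums of 37.3 and 8.69 FPKM. The macrophage markers *Emr1*, *Csf1r*, *Cd68*, *Mrc1*, *Cd163* and *Fcgr3* had a median of −0.05 and sums of 448 and 440 FPKM, most of it from *Cd68*, whose row is merged with *Eif4a1* and *Senp3*. *Cd163*, in a row marked as failed, was the only one of them lower past the limit, at −0.45. Of these lymphocyte markers *Cd22*, *Blk*, *Cd3d* and *Cd5* were below 5 FPKM in both genotypes, and with a pseudocount of 1 the ratios of low genes shrink, as for *Ms4a1* from −3.36 to −2.09 and *Cd3e* from −2.57 to −1.89. No marker was at 0 in either genotype. The 3 immuno subunits were at −0.12 to −0.34, and how these values relate to the lymphocyte markers was not tested.

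Markers of other tissues differed too. The epithelial markers *Epcam*, *Krt8*, *Krt18*, *Krt5* and *Krt14* (merged with *Krt16*) were higher in *miR-21-/-* glands by 0.50 to 0.76, while the milk protein genes *Csn2* and *Wap* were at −1.04 and −1.48. At equal sums over all rows *Epcam*, *Krt18* and *Krt5* were lower instead. The fat cell markers *Adipoq*, *Fabp4* and *Cidec* were at −0.48 to −0.54, *Plin1* was at −0.07 and *Lep* at 1.29. The skeletal muscle markers *Acta1*, *Ckm*, *Mb*, *Myh4* (in a row marked as failed) and *Tnnt3* were higher by 0.66 to 1.86. Epithelial, fat cell and leukocyte markers were thus all detected in both genotypes. The log2 ratios near 0 of the constitutive proteasome genes stood beside these differences in tissue markers, whose part in them was not tested.

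**Figure D4:**
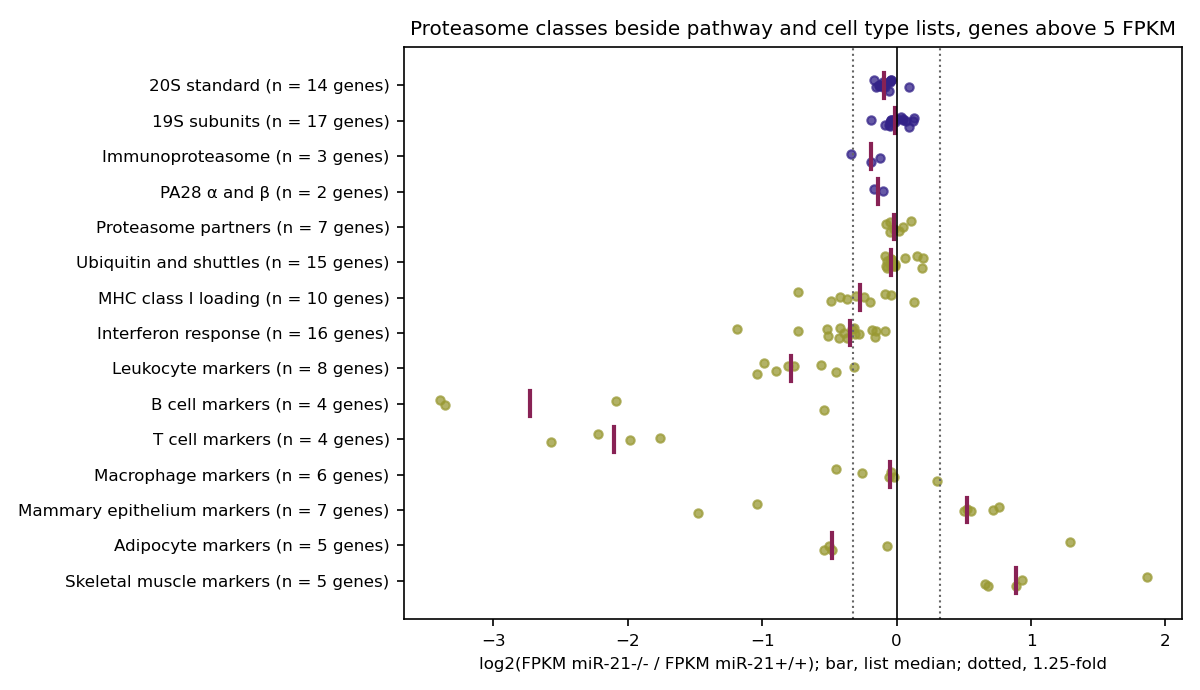
log2 ratio of each gene above 5 FPKM in 4 proteasome classes (dark) and in the pathway and cell type lists (light), with list medians as bars and the limits of 0.32 either way dotted. Standard core, cap, PA28, partner and ubiquitin genes lie within the limits. The 3 immuno subunits lie left of 0, with *Psmb9* past the limit. MHC class I and interferon genes reach to the left, lymphocyte markers lie furthest left (−1.76 and below, apart from *Cd79a*) and muscle markers lie on the right.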

How the data were processed

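Poly(A) RNA of mammary tissue was sequenced by the authors as single-end reads and aligned to mm9 with TopHat (the submitters' processing notes also name CASAVA). They estimated FPKM with Cufflinks and deposited 1 table of 30506 rows with 1 FPKM value per genotype, pooling 2 mice. Versions, annotation and normalization options are not given in the sources used here. Columns with the authors' own comparison (fold change, test statistic, p-value, q-value, significance) were not used. A deposited status word served only to find failed rows, 1011 of the 9714 kept.

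Log2 ratios were computed without a pseudocount for named rows above 5 FPKM in at least one genotype, 9714 of 22483. Depth is unknown: among 1081 rows below 0.05 FPKM in both genotypes the most common ratio, 1.21, occurred 14 times and the next 5 times, so whole reads could not be recovered. FPKM sums were 759295 in *miR-21+/+* and 1175603 in *miR-21-/-* over all rows, and 380567 and 355385 over named rows, so equal sums shift log2 ratios by −0.63 or 0.10. Row starts count from 0 (8712 matched annotated starts after adding 1, 512 as printed), and coordinates here count from 1.

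All members are named, with every gene of a list of 10 or fewer kept genes and otherwise the 2 most abundant and the 2 with the largest log2 ratio in size, except for a few genes that are not reported here. Members and lists were chosen with earlier results of these data known. Counts and the motif search were tested on simulated data. Alternatives were pseudocounts, FPKM minimums, fold limits, 3 scalings, and leaving out merged or failed rows. Python 3.11.15, numpy 2.4.6, pandas 2.3.3 and matplotlib 3.10.9 were used.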

Additional observations from a re-analysis of the deposited data

How the results depend on the processing

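No paired analysis was possible because both mice of a genotype share 1 value, and for the same reason no mouse was left out in turn. With no replicates, a log2 value was said to move when it changed by 0.1 or more, and a share when it changed by 1 percentage point or more. Equal sums over all rows shifted every log2 ratio by −0.63: the medians became −0.69 for all members, −0.73 for the alpha ring, −0.73 for the standard beta subunits, −0.82 for the immunoproteasome, −0.64 for the 19S cap and −0.72 for activators, inhibitor and chaperones, and 46 members were lower past the limit of 0.32. The same scaling turned the epithelial marker median to −0.11, *Epcam* to −0.13, *Krt18* to −0.08 and *Krt5* to −0.11. The count of 1 member lower past the limit became 0 with equal sums over named rows, with centring on the median, at 1.5-fold and at 2-fold, and 6 at 1.1-fold, a limit added after seeing the data. No member was higher past the limit under any of these. Equal sums over named rows moved the medians by just under 0.1 but took some across 0, to 0.04 for all members, 0.01 for activators, inhibitor and chaperones and 0.09 for the 19S cap. Centring took the 19S median to 0.02. The class medians also moved by less than 0.1 with pseudocounts of 1 and 0.1, minimums of 1, 20 or none, which kept 46, 38 and 48 members, and without merged or failed rows (the last added after seeing the data). With a pseudocount of 1, 12 values moved, none of them a member: the T cell marker median from −2.10 to −1.65, *Mb* from 1.86 to 1.47, *Wap* from −1.48 to −1.19, *Irf8* from −0.73 to −0.63, and B and T cell markers. The shares of the immuno subunits moved by less than 1 point with either pseudocount. Without read counts, no precision can be given for any ratio.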
